A study of Mus musculus with 12 samples.

Results

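The enzymes that carry squalene to cholesterol were followed through 9 genes: Sqle, Lss, Cyp51, Tm7sf2, Msmo1, Nsdhl, Hsd17b7, Ebp and Dhcr7. They were listed by function, with earlier results of these data known. Every probe set annotated to one of them alone was used. A probe set is a group of short array oligonucleotides read together as 1 value. The 9 genes had 9 of the 35557 probe sets of the macrophage and liver array, whose annotation names 19938 genes singly, and 14 of the 22690 of the aorta array. All 9 passed the filter on dim genes in macrophages and liver, and 8 passed it in the aorta.

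Mice lacking both Prkch and Apoe (Prkch-/-Apoe-/-, the knockout) were set against mice lacking Apoe alone (Apoe-/-), which the labels call wt although they are not wild type. Prkch encodes protein kinase C eta, and mice without Apoe clear lipoproteins poorly from the blood. All mice were backcrossed to C57BL/6J, and what was deleted of Prkch is not described in the labels. Liver came from 20-week-old males fed high-fat diet for 12 weeks and then re-fed (2 arrays for each genotype). Peritoneal macrophages, elicited with thioglycolate and not stimulated, were taken from female mice kept on regular diet (3 arrays for each genotype), at 18, 17 and 27 weeks of age for replicates 1, 2 and 3. Aorta came from fed males of the same age and diet as the livers, and a single array for each genotype read the pooled RNA of 4 of them. The settings thus differ in sex, diet, feeding and age along with the tissue.

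Sqle (squalene epoxidase) and Lss (lanosterol synthase) close squalene into the first sterol, lanosterol. Cyp51 removes the methyl group at carbon 14 and Tm7sf2 reduces the double bond that this leaves. Msmo1, Nsdhl and Hsd17b7 remove the methyl groups at carbon 4 in repeated rounds, as oxidase, decarboxylating dehydrogenase and ketone reductase. Ebp moves a ring double bond, and Dhcr7 reduces one near the end of the pathway. Most genes of cholesterol synthesis are targets of SREBP2, a transcription factor held in the endoplasmic reticulum while membrane sterol is plentiful, which acts on promoters together with NF-Y and Sp1.

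Array medians were 5.88 to 5.93 log2 units in liver and 6.57 to 6.77 in macrophages, and levels are compared within a tissue only. By its brighter probe set, Prkch was lower in knockout livers (5.93 and 5.65 log2 units) than in Apoe-/- livers (6.57 and 6.87). In macrophages its values ran from 8.79 to 9.36 in knockouts and from 9.31 to 9.94 in Apoe-/- mice, which overlap. The difference there was -0.70 ± 0.22 (SE, n = 3 and 3). A dimmer Prkch probe set read 3.94 and 4.21 in knockout livers against 4.08 and 4.04 in Apoe-/- livers, which overlap. On macrophage arrays it ran from 6.62 to 6.852 in knockouts and from 6.845 to 7.14 in Apoe-/- mice, also overlapping. In the aorta the Prkch signal was 9.94 in the knockout pool and 17.2 in the Apoe-/- pool. Both were too dim for the filter. Each sample held the markers of its label. Of 6 hepatocyte markers 5 were measured, and their summed linear level was 69550 and 73290 in knockout livers and 66630 and 68980 in Apoe-/- livers. The 6 macrophage markers summed to between 44700 and 53200 on knockout macrophage arrays and between 43900 and 47900 on Apoe-/- arrays. The 6 smooth muscle markers summed to 4643 signal units in the knockout aorta pool and 3906 in the Apoe-/- pool. The macrophage arrays fell into a pair of sets that the labels do not name. Knockout replicates 2 and 3 and Apoe-/- replicate 3 shared 16075 to 18000 identical deposited values per pair (set 2). Knockout replicate 1 and Apoe-/- replicates 1 and 2 shared 53 to 69 (set 1), and pairs across the sets shared 0 to 3. Within each set Prkch, by its brighter probe set, was lower in knockouts: 9.36 against 9.94 and 9.86 in set 1, and 8.79 and 8.87 against 9.31 in set 2.

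The promoters of the members are shown because all 9 genes had higher means in knockout livers, by unequal amounts. RefSeq windows of 300 bases (250 before the start site and 50 from it on, build GRCm38.p6) were matched by symbol for 8 of the 9 genes, in 10 windows. They were searched on both strands for CCAAT (NF-Y), GGGCGG (Sp1) and TCACNCCAC (a form of the sterol response element bound by SREBP2), and no matches overlapped each other. The windows of Msmo1 (chr8:64733529-64733828, minus strand), Cyp51 (chr5:4104648-4104947, minus strand) and Dhcr7 (chr7:143829964-143830263, plus strand, the last of its 3 windows) belong to genes with large liver differences. Those of Tm7sf2 (chr19:6067801-6068100, minus strand) and Ebp (chrX:8193463-8193762, minus strand) belong to the genes with the smallest. Each is written 5′ to 3′ on the strand of the gene, with matches in capitals.
Msmo1: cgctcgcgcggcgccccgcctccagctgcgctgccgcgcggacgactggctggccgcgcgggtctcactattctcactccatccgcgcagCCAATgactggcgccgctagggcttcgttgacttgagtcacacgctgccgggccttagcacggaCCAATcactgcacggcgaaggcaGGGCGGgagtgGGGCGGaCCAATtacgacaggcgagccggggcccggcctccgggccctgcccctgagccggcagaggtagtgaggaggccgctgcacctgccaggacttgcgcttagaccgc
Cyp51: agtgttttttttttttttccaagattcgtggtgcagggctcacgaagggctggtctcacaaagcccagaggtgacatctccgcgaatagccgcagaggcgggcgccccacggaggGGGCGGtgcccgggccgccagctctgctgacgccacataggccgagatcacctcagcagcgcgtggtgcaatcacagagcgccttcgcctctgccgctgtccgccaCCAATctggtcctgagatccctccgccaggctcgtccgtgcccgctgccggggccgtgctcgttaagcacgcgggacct
Dhcr7: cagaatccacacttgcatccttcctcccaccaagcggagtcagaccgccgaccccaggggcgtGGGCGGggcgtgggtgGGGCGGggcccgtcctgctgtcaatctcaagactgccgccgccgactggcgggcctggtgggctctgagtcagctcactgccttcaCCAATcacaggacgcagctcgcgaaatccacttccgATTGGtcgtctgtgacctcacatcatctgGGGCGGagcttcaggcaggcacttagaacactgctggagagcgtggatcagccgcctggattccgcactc
Tm7sf2: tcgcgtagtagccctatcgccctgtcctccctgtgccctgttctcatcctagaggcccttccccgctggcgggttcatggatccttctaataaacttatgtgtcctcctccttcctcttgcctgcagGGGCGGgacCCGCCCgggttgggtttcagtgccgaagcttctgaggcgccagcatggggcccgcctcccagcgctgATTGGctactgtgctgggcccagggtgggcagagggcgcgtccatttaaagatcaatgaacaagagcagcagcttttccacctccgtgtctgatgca
Ebp: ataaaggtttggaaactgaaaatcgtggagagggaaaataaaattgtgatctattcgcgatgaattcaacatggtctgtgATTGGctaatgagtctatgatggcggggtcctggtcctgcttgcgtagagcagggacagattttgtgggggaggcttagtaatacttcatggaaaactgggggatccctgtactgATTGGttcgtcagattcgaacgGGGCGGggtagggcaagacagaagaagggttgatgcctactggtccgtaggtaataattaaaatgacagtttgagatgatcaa

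CCAAT was found for 8 of the 8 member genes with a window, against 41.1% of 27025 genes, and GGGCGG likewise for 8 of 8, against 38.2%. Of 6 listed genes from acetyl-CoA to squalene with a window, 5 held CCAAT, 5 held GGGCGG and 1 held TCACNCCAC. By window the counts were 8 and 9 of 10, against 37.4% and 35.7% of 32851 windows. The motif CCAAT occurred 3 times in the Msmo1 window, 4 times in that of Nsdhl, 3 times in that of Hsd17b7, and once each in those of Lss, Cyp51 and Tm7sf2. Tm7sf2 and Ebp, the members with the smallest liver differences, held both motifs, with 1 and 2 matches of CCAAT. The letters TCACNCCAC were in 0 of the 10 member windows and in 1.24% of all windows, which says only that these letters are not there. Motif matches are descriptions of sequence and no measure of binding.

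In liver, all 9 genes had a higher mean in knockouts than in Apoe-/- mice, by a median of 1.01 log2 units, where the median of all 15942 genes tested was -0.02. The differences were uneven: Sqle was 3.93-fold higher and Msmo1 2.73-fold, while Tm7sf2 (1.05-fold) and Ebp (1.09-fold) differed by less than 1 SE. None of the 9 was called, meaning a Benjamini-Hochberg adjusted p under 0.05 over all genes by limma, which fits each gene with a spread partly shared across genes. That rule called 0.00627% of all genes higher, a single gene, Idi1 of the earlier pathway. At an unadjusted p under 0.05, 6 of the 9 were higher, against 1.54% of all genes. Both knockout arrays lay above both Apoe-/- arrays in 7 of the 9, against 11.8% of all genes. As the members were chosen with earlier results of these data known, these shares describe them and are no independent support.

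**Figure D1:**
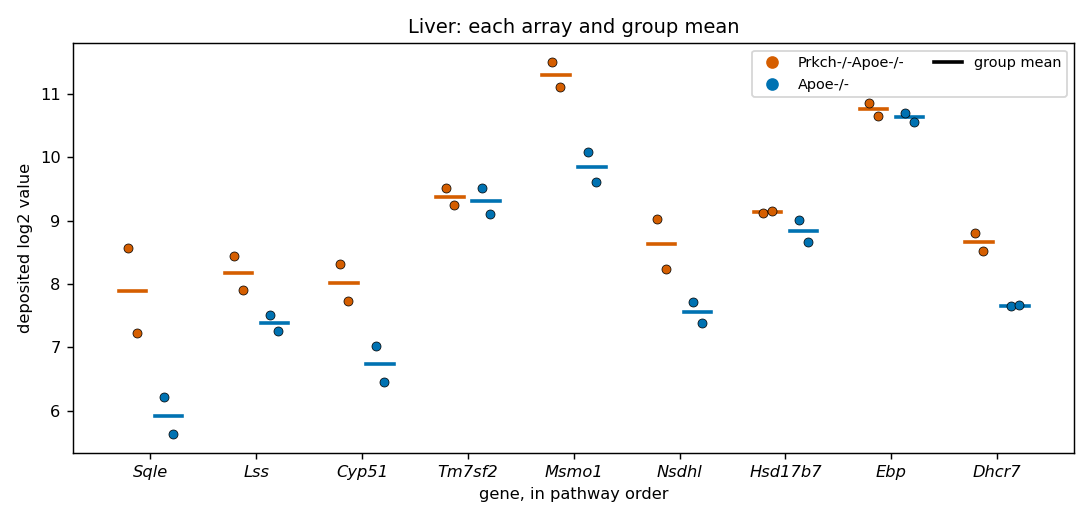
Deposited log2 values of the 9 genes in liver, in pathway order, with 1 point per array (2 per genotype) and a line at each group mean. Knockout points lie above the Apoe-/- points in 7 genes, and the genotypes overlap in Tm7sf2 and Ebp.

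Sqle, the entry step, showed the widest gap of the 9. It read 8.57 and 7.22 log2 units in knockout livers against 6.21 and 5.63 in Apoe-/- livers. Both knockouts were above both Apoe-/- livers, although the knockouts themselves lay further apart than the Apoe-/- livers did. The difference was 1.97 ± 0.39 (SE, n = 2 and 2; limma with Benjamini-Hochberg adjustment, adjusted p = 0.654), and 0 of 15942 genes had a larger positive one. Lss, the cyclase that follows, read 8.44 and 7.90 in knockouts against 7.51 and 7.26 in Apoe-/- mice. Its groups did not overlap and differed by 0.78 ± 0.19 (SE, n = 2 and 2).

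Carbon 14 demethylation was split between its enzymes. Cyp51, the demethylase, read 8.31 and 7.73 in knockout livers against 7.02 and 6.45 in Apoe-/- livers, a difference of 1.28 ± 0.24 (SE, n = 2 and 2) that only 3 genes exceeded. The groups did not overlap. Tm7sf2, the reductase of the next step, read 9.51 and 9.24 in knockouts against 9.52 and 9.11 in Apoe-/- mice. Its groups overlapped, and the difference of 0.07 ± 0.18 (SE, n = 2 and 2) was smaller than its error.

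The 3 genes of carbon 4 demethylation had unequal gaps. Msmo1, the oxidase, read 11.51 and 11.10 in knockout livers against 10.09 and 9.62 in Apoe-/- livers. The groups were more than 1 log2 unit apart at their nearest arrays, and the difference was 1.45 ± 0.20 (SE, n = 2 and 2; limma with Benjamini-Hochberg adjustment, adjusted p = 0.192), with 2 genes above it. Nsdhl, the dehydrogenase, read 9.03 and 8.24 in knockouts against 7.71 and 7.39 in Apoe-/- mice, a difference of 1.09 ± 0.25 (SE, n = 2 and 2) without overlap. Hsd17b7, the reductase, read 9.12 and 9.15 in knockouts against 9.003 and 8.66 in Apoe-/- mice, a difference of 0.30 ± 0.15 (SE, n = 2 and 2). Its groups did not overlap, but 395 genes had a larger difference.

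The last steps were unequal likewise. Ebp, the isomerase, read 10.86 and 10.65 in knockout livers against 10.71 and 10.55 in Apoe-/- livers, which overlap, with a difference of 0.13 ± 0.14 (SE, n = 2 and 2). Dhcr7, the reductase, read 8.81 and 8.52 in knockouts against 7.64 and 7.66 in Apoe-/- mice, whose values were nearly equal. Its difference was 1.01 ± 0.15 (SE, n = 2 and 2; limma with Benjamini-Hochberg adjustment, adjusted p = 0.239). An exact permutation test of 2 arrays against 2 cannot give a p below 0.333, so limma's shared spread carries each of these p-values.

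The knockout livers were unequal across the pathway. Relative to the Apoe-/- mean, the median member stood at 1.16 log2 units in knockout replicate 1 and at 0.69 in knockout replicate 2, against 0.17 and -0.17 in the Apoe-/- replicates. Replicate 1 exceeded replicate 2 in 8 of 9 members in knockouts and in 8 of 9 in Apoe-/- mice, against 46.2% and 53.5% of all genes. The exceptions were Hsd17b7 in knockouts and Dhcr7 in Apoe-/- mice. Each liver fit with 1 array left out has a genotype of 1 array, which is assumed to vary like the remaining pair. Under that assumption, without knockout replicate 2, limma called 39 genes and among them 4 members with Benjamini-Hochberg adjustment: Sqle (2.65, adjusted p = 0.0259), Nsdhl (1.48, adjusted p = 0.0372), Dhcr7 (1.16, adjusted p = 0.0423) and Msmo1 (1.65, adjusted p = 0.0459). Without knockout replicate 1 it called 0, with Sqle at 1.30, Nsdhl at 0.69 and a median of 0.69. Without Apoe-/- replicate 1 or 2 it also called 0 members.

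Macrophage and Kupffer cell markers had lower means in knockout livers. All 6 macrophage markers were among them, with a summed linear level of 3364 and 4080 in knockouts against 4644 and 6310 in Apoe-/- mice. The 4 Kupffer cell markers summed to 4489 and 3107 in knockouts and to 4848 and 6099 in Apoe-/- mice. Both knockout arrays lay below both Apoe-/- arrays in 5 of 6 macrophage markers but in 1 of 4 Kupffer cell markers, Cd5l (18.0% of all genes). Clec4f, Vsig4 and Timd4 overlapped between genotypes. They read 9.83, 10.36 and 8.04 in knockout replicate 1 and 9.09, 8.87 and 6.25 in knockout replicate 2. The 5 hepatocyte markers differed by a median of 0.06 log2 units. The part of cell composition in the sterol gene differences was not tested, and in whole tissue fewer cells of a type and less RNA per cell cannot be told apart.

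The rest of the pathway was measured for 7 of 9 listed enzymes from acetyl-CoA to squalene. All 7 had higher means in knockout livers, by a median of 0.73 log2 units. In 7 of 7 both knockout arrays lay above both Apoe-/- arrays (11.8% of all genes). Likewise 7 of 7 were higher at an unadjusted p under 0.05 (1.54% of all genes). Idi1, the isomerase that makes the activated isoprene unit, differed by 1.79 ± 0.16 and was called (limma with Benjamini-Hochberg adjustment, adjusted p = 0.0463). That call was lost with quantile normalization (adjusted p = 0.0681), without the dim filter (0.0722), with a trended prior (0.0554), with all 10 arrays in 1 limma fit (0.253), without knockout replicate 1 (0.157) and without Apoe-/- replicate 1 (0.0559), and over all settings tried its adjusted p ran from 0.000258 to 0.253. Fdps, which builds farnesyl diphosphate, differed by 1.16 ± 0.24, Hmgcs1, the synthase ahead of the committed step, by 0.73 ± 0.19, and Mvk, mevalonate kinase, by 0.51 ± 0.13 (SE, n = 2 and 2). Of the other enzymes after squalene, Sc5d, the desaturase just before Dhcr7, differed by 0.55 ± 0.19, and Lbr, which shares the reductase activity of Tm7sf2, by 0.13 ± 0.16 (SE, n = 2 and 2). Lbr, like Tm7sf2, overlapped between genotypes.

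Of 9 listed genes of SREBP control 6 were measured, 3 higher and 3 lower in knockout liver means. Of these, 2 were higher at an unadjusted p under 0.05 (1.54% of all genes). Insig1, an SREBP target that retains SREBP in the endoplasmic reticulum, read 11.84 and 11.16 in knockout livers against 10.57 and 10.70 in Apoe-/- livers, a difference of 0.87 ± 0.21 (SE, n = 2 and 2) without overlap. Stard4, a sterol carrier, differed by 0.61 ± 0.20 and Srebf2, which encodes SREBP2, by 0.22 ± 0.13 (SE, n = 2 and 2). Mbtps1, a protease that cuts SREBP, differed by -0.15 ± 0.14 (SE, n = 2 and 2). Cyb5a, Cyb5b and Cyb5r3, which pass electrons to oxidases such as Msmo1, differed by -0.09 ± 0.15, 0.24 ± 0.15 and 0.00 ± 0.13, each within 2 SE. In the list of sterol export and esterification, the esterification genes Soat1 and Soat2 were not measured. The rest, sterol transporters and Mylip, ran the other way. All 5 measured had lower means in knockout livers, 3 at an unadjusted p under 0.05 (2.75% of all genes) and 4 without overlap (18.0% of all genes). Abcg5 and Abcg8, the partner subunits of the sterol exporter into bile, differed by -0.56 ± 0.21 and -0.60 ± 0.19, Abcg1 by -0.48 ± 0.17, and Mylip, which marks the LDL receptor for degradation, by -0.35 ± 0.17 (SE, n = 2 and 2). Idi1 was the single called gene in these lists. In macrophages limma called 0 genes of these lists with Benjamini-Hochberg adjustment. The median differences there were -0.02 for the earlier pathway (3 of 7 higher in knockouts) and 0.08 for SREBP control (4 of 6). For the sterol transporters and Mylip the median difference was 0.09 (3 of 4 measured there).

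**Figure D2:**
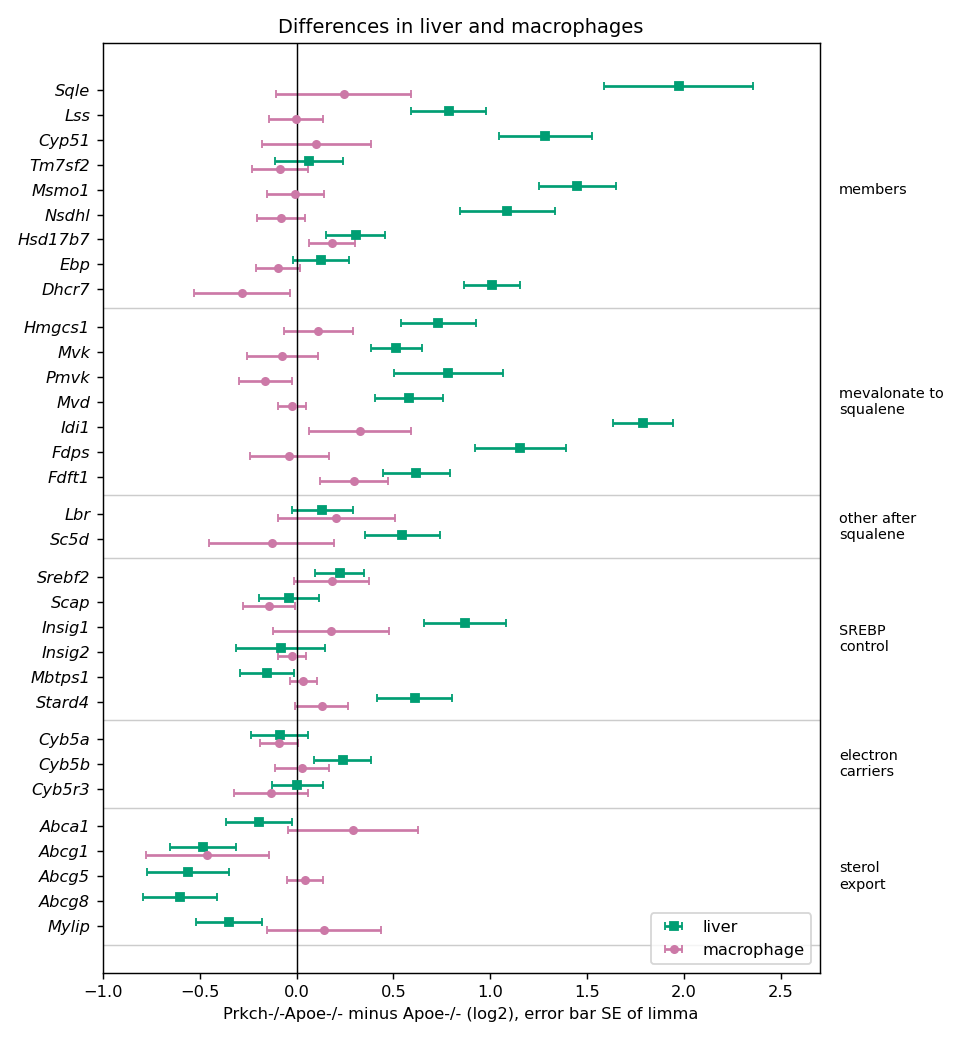
Knockout minus Apoe-/- difference (log2) for the 9 members and the related lists, in liver (squares) and macrophages (circles), with SE bars from limma (n = 2 and 2, n = 3 and 3). Most pathway genes lie right of 0 in liver, from 0.07 to 1.97 among the members, and around 0 in macrophages, from -0.28 to 0.24.

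In macrophages the same 9 genes did not differ in one direction: 3 had higher and 6 lower means in knockouts, with a median difference of -0.01 log2 units, against -0.04 for all 15039 genes tested. Limma called 0 members at a Benjamini-Hochberg adjusted p under 0.05 (0% of all genes were called higher, with a smallest adjusted p of 1.00) and found 0 higher at an unadjusted p under 0.05, against 0.120% of all genes. In 0 members did all knockout arrays lie above (0.652% of all genes) or below (1.60%) all Apoe-/- arrays. With 3 arrays against 3, an exact permutation test cannot go below 0.1.

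The array sets lay further apart than the genotypes for every member but Hsd17b7. Sqle read 9.21, 8.04 and 8.62 log2 units in knockout replicates 1 to 3 against 8.70, 8.62 and 7.82 in Apoe-/- replicates 1 to 3. The genotypes overlapped; the highest 2 arrays belonged to set 1 and the lowest, Apoe-/- replicate 3, to set 2. Its difference was 0.24 ± 0.35 (SE, n = 3 and 3), but 0.54 within set 1 and 0.52 within set 2, and 0.53 ± 0.17 with the set as a block (limma with Benjamini-Hochberg adjustment, adjusted p = 0.932). With that block 1 member was higher at an unadjusted p under 0.05, against 0.552% of all genes. Cyp51 read 8.71, 8.27 and 7.92 in knockouts against 8.63, 8.25 and 7.72 in Apoe-/- mice. The groups overlapped, and the difference of 0.10 ± 0.28 (SE, n = 3 and 3) became 0.32 ± 0.15 with the set as a block. Set 2 lay below set 1 in 9 of 9 members, by -0.29 in median, against -0.13 for all genes.

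Dhcr7 read 8.64, 7.87 and 8.21 in knockouts against 8.70, 8.75 and 8.10 in Apoe-/- mice, a difference of -0.28 ± 0.25 (SE, n = 3 and 3) that shrank to -0.08 ± 0.11 with the set as a block. Its groups overlapped, and within sets 1 and 2 it differed by -0.09 and -0.06. Msmo1 read 11.88, 11.58 and 11.61 in knockouts against 11.92, 11.71 and 11.45 in Apoe-/- mice, a difference of -0.01 ± 0.15 (SE, n = 3 and 3). The other members ran close together: Lss differed by -0.0035, Tm7sf2 by -0.09, Nsdhl by -0.08, Hsd17b7 by 0.19 and Ebp by -0.10, each with overlapping groups. With the set as a block 7 members had higher and 2 lower means in knockouts, and the median of the members was 0.09, against 0.01 for all genes. Without knockout replicate 1 or Apoe-/- replicate 3, 1 member was higher and 8 lower. Without knockout replicate 1 the median became -0.11, Sqle -0.05 and Cyp51 -0.10, and without Apoe-/- replicate 3 they were -0.14, -0.04 and -0.14.

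Identical deposited values limited what set 2 could show. Tm7sf2 was listed at 7.71 on all 3 of its arrays, and Hsd17b7 (8.05) and Ebp (9.30) were equal on knockout replicate 2 and Apoe-/- replicate 3. In all, 3 of 9 members had equal values on at least 2 arrays of set 2, as did 66.1% of all genes. B cell markers summed to 3211 linear units on knockout replicate 2 against 449 to 1251 on the other 5 macrophage arrays. Their part in the sterol gene values was not tested.

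**Figure D3:**
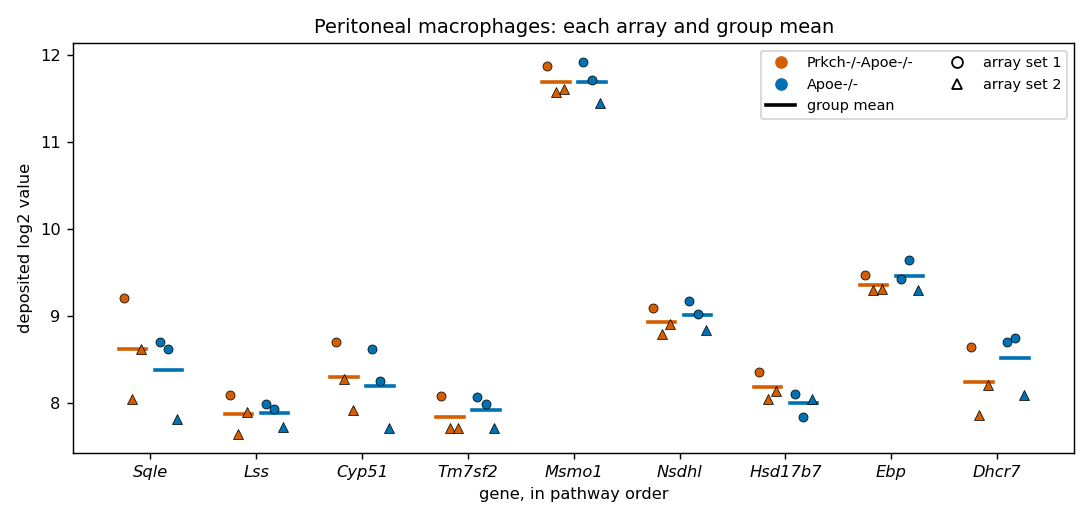
Deposited log2 values of the 9 genes in peritoneal macrophages, with 1 point per array (3 per genotype), circles for set 1, triangles for set 2 and a line at each group mean. The genotypes overlap in all 9 genes, and set 2 lies below set 1 by -0.29 in median.

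The liver difference was then set against the macrophage difference in 1 fit over the 10 arrays. It was larger in liver for 9 of 9 members, by a median of 1.17 log2 units, against 0.01 for the 16363 genes tested. Limma called 0 of them with Benjamini-Hochberg adjustment (0% of all genes were called higher, with a smallest adjusted p of 0.528 over all genes). At an unadjusted p under 0.05, 6 members were larger in liver, against 1.02% of all genes. These were Sqle by 1.73 ± 0.62, Msmo1 by 1.46 ± 0.27, Dhcr7 by 1.29 ± 0.34, Cyp51 by 1.18 ± 0.44, Nsdhl by 1.17 ± 0.31 and Lss by 0.79 ± 0.26 (SE, 10 arrays). Tm7sf2 (0.15 ± 0.25), Hsd17b7 (0.12 ± 0.20) and Ebp (0.22 ± 0.18) differed by less than 2 SE. Without liver knockout replicate 1 or without liver Apoe-/- replicate 2, 3 members passed that unadjusted threshold, against 1.17% and 1.13% of all genes. Tissue, sex, diet, feeding and age cannot be told apart in this contrast. It also took no account of the macrophage array sets, and no contrast with the set as a block was fitted. In macrophages alone, that block moved the median of the members from -0.01 to 0.09, Sqle from 0.24 to 0.53 and Cyp51 from 0.10 to 0.32. Higher macrophage differences make this contrast smaller.

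The genes whose values lay nearest to the median profile of the members over these 10 arrays, each taken minus the mean of its tissue, were Zfp709, Mtmr11, Chrna4, Pmvk, Gpam, Hmgcs1, Tff3 and Acacb. They lay on average 0.09 to 0.11 log2 units from that profile per array. Pmvk and Hmgcs1 are enzymes of the earlier pathway, Gpam starts glycerolipid synthesis and Acacb makes malonyl-CoA. Zfp709, Mtmr11 and Chrna4, which lay nearest, and Tff3 are in none of the lists used here, nor are Gpam and Acacb. The profile is the median of the 9 members themselves, so the nearness of members to it is partly built in. Among 16363 genes compared, no gene outside the 9 was nearer than Lss (0.04) or Nsdhl (0.07). However, 59 were nearer than Msmo1, 62 than Dhcr7, 460 than Tm7sf2, 1988 than Hsd17b7, 2722 than Ebp and 2979 than Cyp51. For Sqle (0.38), whose swings were wider than the median profile, 15444 were nearer. The profile also carries the array sets of the macrophages.

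**Figure D4:**
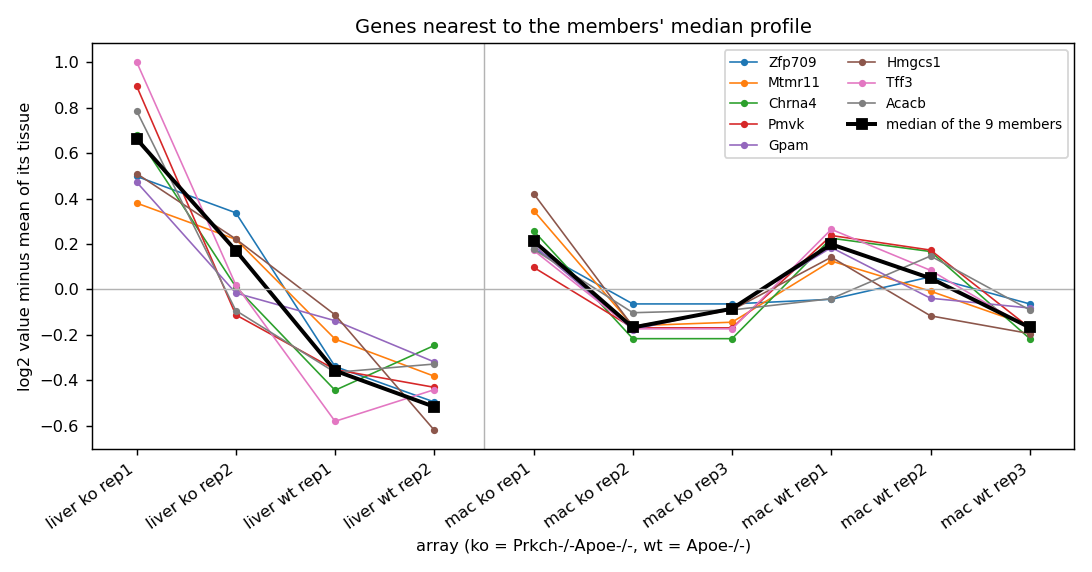
Log2 value minus the mean of its tissue on each of the 10 liver and macrophage arrays, for the median of the 9 members (black) and the 8 nearest genes (lines join arrays only to guide the eye). The median is highest on liver knockout replicate 1 (0.66) and lowest on liver Apoe-/- replicate 2 (-0.52).

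In the aorta, with 1 array per genotype and therefore no test, the members showed no common direction. Of the 8 that passed the filter on dim genes (a signal of at least 32.6 on the brighter array), 3 were higher and 5 lower in the knockout pool. Their median difference was -0.02 as log2(signal + 16), a scale that shrinks differences of dim genes, against -0.01 for all 7098 genes kept. None reached the 2-fold difference that 0.873% of all genes passed upward. Msmo1 had a signal of 108.8 in the knockout pool and 76.2 in the Apoe-/- pool, a difference of 0.44. Lss had 35.9 in the knockout pool and 50.9 in the Apoe-/- pool, a difference of -0.37. Over the probe set that stood for each gene, these were the widest gaps in each direction. With the mean over all probe sets of a gene, Lss differed by -0.04 and the widest downward gap was that of Ebp, at -0.13.

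Probe sets of the same gene ran in opposite directions for Lss, and for Cyp51 only by its dimmest one. The other probe sets of Lss had 8.35 and 22.8 in the knockout pool and 6.56 and 19.4 in the Apoe-/- pool, so they ran the other way, though below the filter. For Cyp51 the brightest probe set had 100.9 in the knockout pool and 78.4 in the Apoe-/- pool, a second had 40.0 and 25.2, and the dimmest had 6.35 and 6.53. Both brighter Cyp51 probe sets were higher in the knockout pool, by 0.31 and 0.44, while the dimmest differed by -0.01. Dhcr7 had 68.0 in the knockout pool and 56.2 in the Apoe-/- pool, a difference of 0.22. Hsd17b7, below the filter, had 32.0 and 16.4 in the knockout pool and 27.0 and 13.4 in the Apoe-/- pool, higher by both probe sets. With the filter at the median of all values of both arrays (28.9), an alternative chosen after seeing the data, Hsd17b7 was kept too, which made 4 members higher and 5 lower.

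Sqle had a signal of 57.2 in the knockout pool and 61.8 in the Apoe-/- pool, Ebp 137.2 and 151.2, Tm7sf2 36.7 and 38.0, and Nsdhl 138.6 and 138.8, with differences between -0.13 and -0.0018. The gene with the largest liver difference, Sqle, was thus slightly dimmer in the knockout aorta pool. The tissue around the vessel also differed between the pools. Adrenal cortex markers, from cells that make steroid from cholesterol, summed to 1075 in the knockout pool and 39.0 in the Apoe-/- pool, with 5 of 5 kept markers higher and 4 of them past 2-fold. Skeletal muscle markers summed to 4471 in the knockout pool and 7056 in the Apoe-/- pool, and B cell markers to 628.1 and 88.3. The part of these tissues in the sterol gene signals was not tested.

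**Figure D5:**
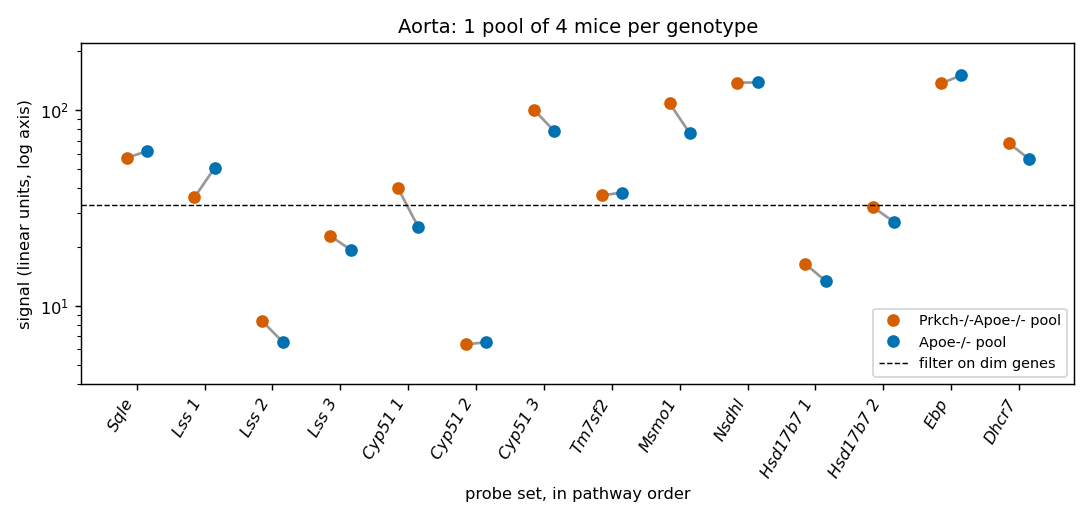
Signal of the 14 probe sets of the 9 genes in the aorta pools (linear units on a log axis), with 1 point per pool of 4 mice, knockout left of Apoe-/-, and a dashed line at the filter on dim genes (32.6). Msmo1 and Cyp51 are higher in the knockout pool (108.8 against 76.2 for Msmo1) and the brightest Lss probe set is lower.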

How the data were processed

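The authors made the values of the 12 arrays with Affymetrix Expression Console, a tool named in the submitters' processing notes, by an algorithm not given in the sources used here. Deposited values of macrophages and liver were read as log2 probe set summaries, from their range. The deposited aorta values were read as linear intensity scaled by the authors, since the mean, trimmed by 2% at each end, was 100.04 for both. Names came from the platform annotation, using probe sets with 1 symbol, and the probe set with the highest mean stood for a gene. Genes whose mean was under the 30th percentile of probe sets were dropped. Liver and macrophages were fitted apart with limma 3.58.1 (R 4.3.3), knockout minus Apoe-/-, with Benjamini-Hochberg adjustment over all genes; the difference between them was fitted over 10 arrays. The aorta used log2(signal + 16) and no test; genes were kept where the brighter array reached the median of the brighter values of all probe sets (32.63), a reading of the planned filter settled after the data were seen. The fits were tested on simulated data. Figures were drawn with matplotlib 3.10.9.

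The members and lists were chosen with earlier results of these data known. Beside the members and Prkch, up to 4 genes per list with the smallest liver p were named, and the 8 genes nearest to the members' median profile. Gene lists beyond the members and the promoter motifs were written for this report. Few arrays limit the precision, and p-values measure the spread between arrays that the labels call biological replicates.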

Additional observations from a re-analysis of the deposited data

How the results depend on the processing

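In liver the median difference of the members was 1.01 and lay between 0.69 and 1.16 with 1 array left out, the low value without knockout replicate 1. The count of called genes was 1 (Idi1), and 0 with quantile normalization, without the filter on dim genes, with a trended prior or with all 10 arrays in 1 fit; it ran from 0 to 39 with 1 array left out, where the lone array of a genotype is assumed to vary like the other pair (39 without knockout replicate 2). The labels give same-numbered macrophage arrays the same age but name no shared litter, batch or day, and deviations of same-numbered arrays correlated at 0.11 in liver and at 0.40, 0.03 and 0.50 in macrophages. With the replicate number as a block, limma called 23 liver genes after Benjamini-Hochberg adjustment, 5 of them members: Sqle (adjusted p = 5.8e-04), Msmo1 (9.9e-04), Cyp51 (0.00223), Nsdhl (0.0154) and Dhcr7 (0.0169). The block called 0 macrophage genes and 0 in the contrast of liver with macrophages, where 201 and 577 genes passed an unadjusted p under 0.05, against 105 and 345 without it. Tm7sf2 changed direction in liver with 1 array left out (-0.14 to 0.27).

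In macrophages the small differences of Lss and Msmo1 turned positive with quantile normalization (0.026 and 0.015), with equal array medians (0.028 and 0.026) and with the array set as a block (0.090 and 0.10), where Tm7sf2 (0.030) and Nsdhl (0.0057) turned too. With 1 array left out Lss ran from -0.11 to 0.11, Msmo1 from -0.13 to 0.11, Nsdhl from -0.16 to 0.0020, Sqle from -0.047 to 0.53 and Cyp51 from -0.14 to 0.32. For liver minus macrophages, leaving out 1 array gave medians from 0.77 to 1.44, 0 to 1 called genes, Tm7sf2 from -0.053 to 0.36 and Hsd17b7 from -0.052 to 0.29. In the aorta the median of the members was -0.024 with a pseudocount of 1, -0.0095 with 64, -0.037 with quantile normalization, which put Nsdhl at 0.018, and -0.0018 without the filter or with the filter at the median of all values, which was chosen after seeing the data; genes past 2-fold numbered 90, against 169 and 37 with these pseudocounts. The causes were not tested.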
